A study of Mus musculus with 18 samples.

Results

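Lrp1b is among the longest genes of the mouse genome, and it encodes a giant endocytic receptor of the LDL receptor family whose extracellular part carries many cysteine-rich ligand-binding repeats, EGF-like repeats and beta-propellers. The circular RNAs described here are all circles whose deposited gene name is or includes Lrp1b, which makes 386 of the 339997 circles listed in any table of the series. A single one of them, spliced from the end of exon 71 back to the start of exon 67, was chosen by its Illumina reads, which were higher in Adar1-2KO than in wild type (WT) brain, so that contrast is given for it as values with no test. The other 385 circles are set beside it. Adar1-2KO, Adar2KO and WT brains were each represented by 3 Illumina libraries and by 3, 3 and 2 Oxford Nanopore (ONT) libraries.

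Adar1-2KO mice carried Adar1E861A/E861A, Ifih-/-, Adar2-/- and Gria2R/R, Adar2KO mice carried Adar2-/- and Gria2R/R, and WT mice carried none of these. E861A inactivates the deaminase of ADAR1, Ifih1 encodes the double-stranded RNA sensor MDA5, and Gria2R/R supplies the edited form of the glutamate receptor subunit that mice lacking ADAR2 need to survive. Adar1-2KO and Adar2KO therefore share the Adar2 and Gria2 alleles and differ by the Adar1 mutation and the loss of Ifih1, whose separate parts cannot be told apart here. All mice were male C57BL/6J aged 3 to 4 months, and whole brain was homogenised, so fewer cells of a type and less RNA per cell cannot be told apart. Total RNA was digested with RNase R, which removes linear RNA, and the remainder was reverse transcribed by rolling around the circles. The labels do not say that replicates came from separate brains, so p-values measure only the spread between these samples, which may be technical. The ONT libraries may also share brains or cDNA with the Illumina ones.

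A circular RNA forms when the spliceosome joins the 3′ end of an exon to the 5′ end of the same or an earlier exon, a reaction called back-splicing. In mammals, inverted repeats in the introns on both sides can pair and bring the 2 splice sites together, and ADAR enzymes convert adenosines to inosines in such double-stranded RNA. Circular RNAs are abundant in brain and accumulate on long neuronal genes, where a single gene can give many different circles. The flanking introns of Lrp1b were not analysed here.

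The reads of each circle come from its back-splice junction, which no linear transcript contains. Exons were numbered along the 91-exon transcript Lrp1b-201 by matching exon lengths, which placed 83 exons and gave both ends of 297 of the 386 circles. Lrp1b lies on the minus strand of chromosome 2, so a circle's first exon has the higher coordinates. The circle picked out joins exons 67 to 71 and spans chr2:40615394-40641028 (GRCm39), and its 5 exons sum to 594 nt. Its closest relative begins at the same exon and takes in exon 72 as well, chr2:40605384-40641028, with 717 nt. All 6 exons are coding. Their sequences are shown because the results turn on which of exons 71 and 72 is joined back to exon 67. Capitals mark the 15 bases that meet at a back-splice: the start of exon 67 and the ends of exons 71 and 72. The sequences are those of the GENCODE M21 transcript, and the coordinates are GRCm39.
exon 67, chr2:40640912-40641028: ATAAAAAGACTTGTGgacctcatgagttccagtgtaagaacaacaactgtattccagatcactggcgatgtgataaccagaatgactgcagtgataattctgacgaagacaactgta
exon 68, chr2:40632774-40632880: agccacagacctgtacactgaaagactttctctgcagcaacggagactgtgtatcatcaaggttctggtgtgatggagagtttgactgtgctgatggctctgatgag
exon 69, chr2:40620709-40620838: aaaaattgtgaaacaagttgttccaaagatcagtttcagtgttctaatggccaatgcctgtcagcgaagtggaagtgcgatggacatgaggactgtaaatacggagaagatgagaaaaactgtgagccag
exon 70, chr2:40615860-40615966: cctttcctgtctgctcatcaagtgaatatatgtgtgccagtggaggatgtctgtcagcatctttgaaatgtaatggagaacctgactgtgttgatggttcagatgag
exon 71, chr2:40615394-40615526: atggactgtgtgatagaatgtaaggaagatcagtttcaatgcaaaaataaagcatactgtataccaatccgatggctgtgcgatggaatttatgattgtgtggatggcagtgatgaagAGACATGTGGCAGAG
exon 72, chr2:40605384-40605506: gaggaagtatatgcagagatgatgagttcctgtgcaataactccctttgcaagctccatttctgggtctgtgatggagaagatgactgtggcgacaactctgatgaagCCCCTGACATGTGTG

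The 3 junctions that follow are built from these exons, with the end of the last exon in lower case and the start of the first exon in capitals. The first and the second differ only on the lower-case side, and the third keeps the exon 71 end but starts at exon 68.
exons 67–71 junction: agacatgtggcagagATAAAAAGACTTGTG
exons 67–72 junction: cccctgacatgtgtgATAAAAAGACTTGTG
exons 68–71 junction: agacatgtggcagagAGCCACAGACCTGTA
On ONT, where a read can run around the whole circle, the exons 67–71 circle was listed with a single isoform and AG and GT splice signals in each of the 8 libraries.

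The Illumina libraries held 3385000, 2181700 and 4308264 back-splice reads for Adar1-2KO, 2659618, 2273787 and 3109401 for Adar2KO, and 3169249, 2207905 and 1516772 for WT. Adar1-2KO replicate 3 stood apart: it had the most reads and listed 21736 circles, against 54244 to 76743 in the other 8 libraries, and it listed 40 Lrp1b circles against 109 to 151. ONT libraries held 186594 to 673705 reads. Markers of neurons, astrocytes and oligodendrocytes had circles in every genotype. Their summed circle levels were 2105 to 2393, 424 to 613 and 911 to 1541 CPM in Adar1-2KO, 1937 to 2083, 568 to 623 and 922 to 1045 CPM in Adar2KO, and 1976 to 2267, 519 to 554 and 817 to 960 CPM in WT. Levels are given throughout as CPM, relative to each library's TMM-scaled total of back-splice reads. Most of the neuronal sums came from Syt1 and Grin2b. The astrocyte sums came mostly from Slc4a4, with Aqp4 at 0 Illumina reads. Those of oligodendrocytes came mostly from Pcdh15 and St18, and Mog had no circle. Mbp had 50.8 ± 65.3 CPM in Adar1-2KO, 6.41 ± 4.80 CPM in Adar2KO and 6.58 ± 3.65 CPM in WT (SD, n = 3 each). Markers of microglia summed to 52.6 to 68.6 CPM in Adar1-2KO, 42.9 to 68.7 CPM in Adar2KO and 37.8 to 57.5 CPM in WT, mostly from Mertk, with Cx3cr1, P2ry12 and Aif1 at 0 Illumina reads. The 5 endothelial markers, all with circles, summed to 21.9 to 82.5 CPM in Adar1-2KO, above the 8.31 to 18.1 CPM of Adar2KO and the 12.0 to 19.3 CPM of WT, and the part of this in the Lrp1b results was not tested. Circles of liver and muscle markers summed to 0 to 17.5 CPM in Adar1-2KO, 3.50 to 13.9 CPM in Adar2KO and 1.30 to 24.4 CPM in WT, all from Ttn, and Alb, Apob, Cyp3a11, Myh4 and Ckm had no circle.

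By CIRIquant counts the exons 67–71 circle had the most Illumina reads of all Lrp1b circles. On ONT the exons 67–72 circle had more, 1016 reads against 937. The CIRI2 caller, summed over its libraries, also gave the exons 67–72 circle more reads. The level of the exons 67–71 circle was higher in Adar1-2KO than in WT brain, while Adar2KO brain was near WT. It had 2689, 1523 and 3697 back-splice reads in the Adar1-2KO libraries, 418, 270 and 473 in the Adar2KO libraries, and 469, 301 and 187 in the WT libraries. Scaled to the libraries these are 798, 670 and 898 CPM in Adar1-2KO, 162, 117 and 158 CPM in Adar2KO, and 149, 134 and 117 CPM in WT. Every Adar1-2KO library lay above every library of the other 2 genotypes, and the Adar2KO and WT values overlapped.

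The level averaged 789 ± 114 CPM in Adar1-2KO, 146 ± 24.9 CPM in Adar2KO and 133 ± 15.8 CPM in WT (SD, n = 3 each). The fitted log2 fold change of Adar1-2KO over WT was 2.56 (SE 0.26), and it was 2.47 without Adar1-2KO replicate 3. The Illumina contrast of Adar1-2KO with WT chose this circle, so the fold change is a description. Adar2KO over WT, which did not choose it, gave a log2 fold change of 0.13 (SE 0.25) and did not pass, with an adjusted p of 1 by edgeR's quasi-likelihood test over all 38297 circles tested. Both contrasts use the same WT libraries. The deposited CIRI2 counts, from another caller on the same reads, gave 1590 and 3841 junction reads in Adar1-2KO replicates 2 and 3, 437, 287 and 494 in Adar2KO, and 508, 363 and 204 in WT.

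**Figure D1:**
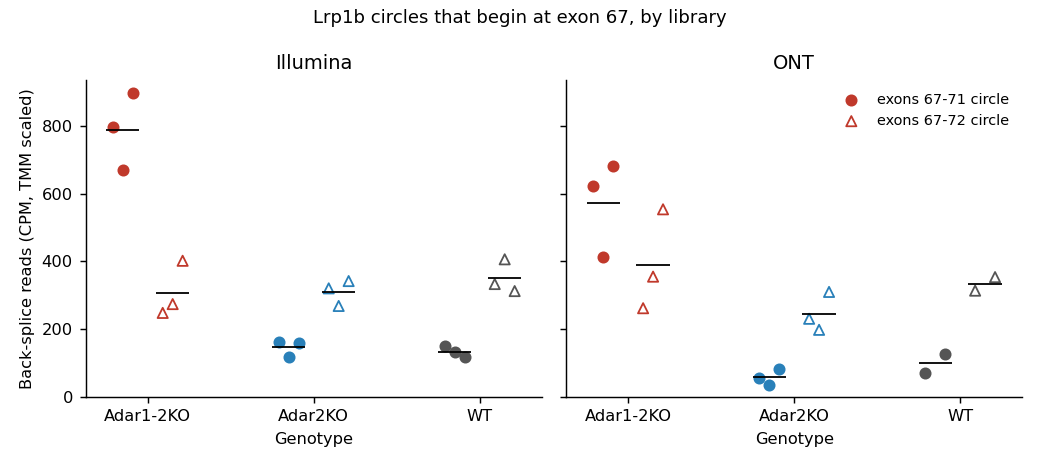
Level of the exons 67–71 circle (filled circles) and of the exons 67–72 circle (open triangles) in each library, in TMM-scaled CPM, on Illumina (left) and ONT (right), with a bar at the mean of each genotype. On Illumina the exons 67–71 circle sits between 670 and 898 CPM in Adar1-2KO and at or under 162 CPM in every Adar2KO and WT library, while the triangles of the 3 genotypes overlap.

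The ONT reads, which played no part in picking the circle, also set Adar1-2KO above the other genotypes, with fewer reads. The exons 67–71 circle had 262, 121 and 442 ONT reads in the Adar1-2KO libraries, 21, 15 and 35 in the Adar2KO libraries, and 15 and 26 in the 2 WT libraries. The means were 573 ± 141 CPM in Adar1-2KO (SD, n = 3), 57.7 ± 22.6 CPM in Adar2KO (SD, n = 3) and 98.4 ± 41.4 CPM in WT (SD, n = 2). No Adar1-2KO library overlapped those of the other genotypes, whereas Adar2KO and WT did overlap.

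The ONT log2 fold change of Adar1-2KO over WT was 2.54 (SE 0.43), with all 3 Adar1-2KO libraries above both WT libraries, but its adjusted p of 0.177 did not pass edgeR's quasi-likelihood test over 10367 circles. The call depends on the tool and on the circles tested. The adjusted p was 1.37e-04 with DESeq2 and 9.77e-05 with edgeR when every circle with a read was tested, and it ranged from 0.0800 to 0.953 when 1 library was left out. Against Adar2KO in place of WT, a comparison chosen after seeing the data, the ONT log2 fold change was 3.31 with an adjusted p of 0.0046 by edgeR. Adar2KO over WT on ONT was -0.76 with an adjusted p of 1 by edgeR.

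Within the gene, the exons 67–71 circle gave 31.7%, 30.1% and 32.4% of all Lrp1b back-splice reads in the Adar1-2KO libraries, 8.59%, 6.23% and 8.56% in the Adar2KO libraries, and 7.45%, 7.02% and 7.01% in the WT libraries. The ONT shares were 29.0%, 22.4% and 26.9% in Adar1-2KO, 3.46%, 2.43% and 5.06% in Adar2KO, and 4.60% and 7.98% in WT. On both platforms every Adar1-2KO share lay above every Adar2KO and WT share, and the Adar2KO and WT shares overlapped.

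The exons 67–72 circle, which differs by the inclusion of exon 72, did not follow. It had 835, 623 and 1655 Illumina reads in Adar1-2KO, 827, 619 and 1023 in Adar2KO, and 1049, 914 and 498 in WT, and its means were 308 ± 82.5, 310 ± 37.8 and 351 ± 49.3 CPM in the same order (SD, n = 3 each). On ONT it had 110, 104 and 359 reads in Adar1-2KO, 86, 83 and 134 in Adar2KO, and 68 and 72 in WT. The 3 genotypes overlapped on Illumina. Its fitted Illumina log2 fold changes were -0.19 for Adar1-2KO over WT and -0.18 for Adar2KO over WT, the second with an adjusted p of 1 by edgeR, and on ONT Adar1-2KO over WT was 0.23 (SE 0.34) with an adjusted p of 0.955 by edgeR.

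The order of the 2 circles within a library was therefore turned round. By CIRIquant the exons 67–71 circle had 3.22, 2.44 and 2.23 Illumina reads for each read of the exons 67–72 circle in Adar1-2KO, 0.505, 0.436 and 0.462 in Adar2KO, and 0.447, 0.329 and 0.376 in WT. CIRI2 listed more reads of the exons 67–72 circle than CIRIquant did. These were 1028 and 2661 in Adar1-2KO replicates 2 and 3, 1338, 969 and 1611 in Adar2KO, and 1726, 1450 and 842 in WT. For the exons 67–71 circle CIRI2 gave 1590 and 3841 in the same Adar1-2KO libraries, so its lead there was smaller in ratio. On ONT the ratios were 2.38, 1.16 and 1.23 in Adar1-2KO, 0.244, 0.181 and 0.261 in Adar2KO, and 0.221 and 0.361 in WT. The exons 67–71 circle exceeded the longer one in every Adar1-2KO library of both platforms and in no Adar2KO or WT library.

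Taking all circles that begin at exon 67 together, 67.7%, 62.6% and 68.2% of their Illumina reads ended at exon 71 in Adar1-2KO, 28.8%, 21.7% and 28.8% in Adar2KO, and 27.2%, 21.4% and 22.9% in WT. Exon 72 was the end for 21.0%, 25.6% and 30.5% in Adar1-2KO, 57.0%, 49.8% and 62.2% in Adar2KO, and 60.9%, 65.0% and 61.0% in WT. ONT gave the same picture for exon 71, with 60.9%, 47.3% and 53.8% in Adar1-2KO, 13.9%, 7.89% and 15.6% in Adar2KO, and 12.7% and 19.5% in WT. Shares of a fixed total move together: the exon 72 share is lower where the exon 71 share is higher, although the level of the exons 67–72 circle overlapped between genotypes.

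**Figure D2:**
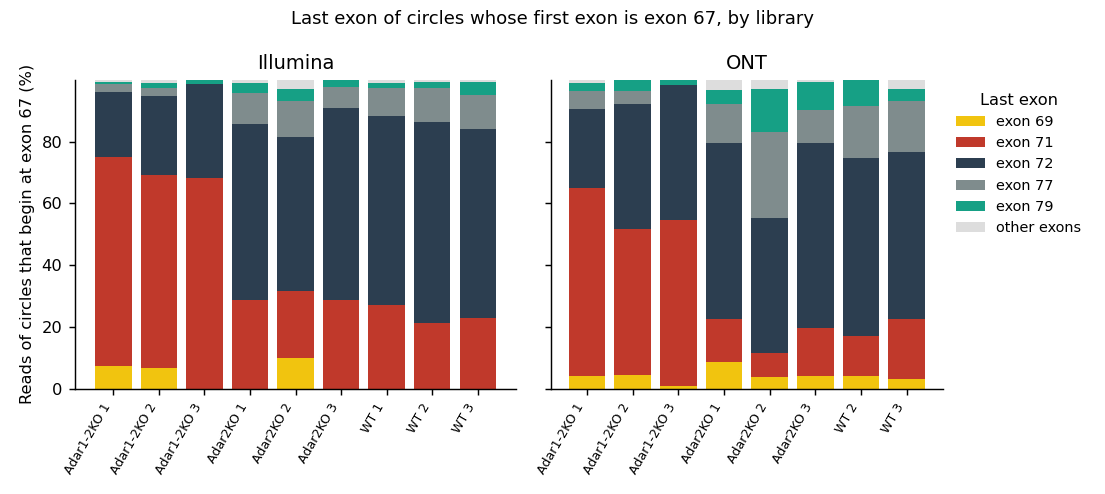
Share (%) of the reads of circles beginning at exon 67 that end at each later exon, 1 stacked bar per library, on Illumina (left) and ONT (right). Exon 71 takes 62.6% to 68.2% of Illumina reads in Adar1-2KO libraries and 21.4% to 28.8% in Adar2KO and WT libraries.

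Other circles share an end with the exons 67–71 circle. The exon 71 end was joined back to exon 68 as well, in a circle of 477 nt at chr2:40615394-40632880. This circle had 205, 97 and 107 Illumina reads in Adar1-2KO, 38, 55 and 21 in Adar2KO, and 67, 35 and 23 in WT, and the Adar1-2KO libraries lay above all others in reads. Its level was 43.2 ± 17.4 CPM in Adar1-2KO, 15.2 ± 8.42 CPM in Adar2KO and 17.1 ± 3.67 CPM in WT (SD, n = 3 each), a log2 fold change of 1.33 for Adar1-2KO over WT. On ONT it had 16, 5 and 23 reads in Adar1-2KO, 2, 2 and 3 in Adar2KO, and 3 and 0 in WT, a log2 fold change of 2.07 (SE 1.34) with an adjusted p of 0.773 by edgeR.

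Site sums include the exons 67–71 circle, so for the exon 71 end and the exon 67 start they restate its own values and give no support. Summed over every circle that uses it, the exon 71 end had 832 ± 109 CPM in Adar1-2KO, 161 ± 18.5 CPM in Adar2KO and 151 ± 19.6 CPM in WT, a ratio to WT of 5.52 for Adar1-2KO and 1.07 for Adar2KO. The exon 67 start had 1188 ± 124 CPM in Adar1-2KO, 551 ± 11.6 CPM in Adar2KO and 561 ± 58.1 CPM in WT. The exon 72 end had 324 ± 73.3 CPM in Adar1-2KO, 395 ± 55.3 CPM in Adar2KO and 408 ± 21.4 CPM in WT (SD, n = 3 each for the 3 sites). At the exon 71 end and at the exon 67 start the step between Adar1-2KO and WT was about the size of that of the exons 67–71 circle itself.

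From exon 67, longer circles reached exons 77, 79 and 83. The exons 67–77 circle had 102, 59 and 0 Illumina reads in Adar1-2KO, 143, 145 and 110 in Adar2KO, and 156, 156 and 90 in WT. On ONT it had 26, 11 and 0 reads in Adar1-2KO, 19, 53 and 24 in Adar2KO, and 20 and 22 in WT, so the library listed at 0 was Adar1-2KO replicate 3 on both platforms. Its log2 fold change for Adar1-2KO over WT was -1.64 on Illumina, and -1.63 (SE 1.04) on ONT with an adjusted p of 0.771 by edgeR. The exons 67–79 circle had 26, 43 and 69 reads in Adar1-2KO, 48, 46 and 36 in Adar2KO, and 28, 27 and 36 in WT. The exons 67–83 and 67–68 circles had at most 9 and 25 reads in any Illumina library.

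The exons 67–69 circle, chr2:40620709-40641028, was listed very differently on the 2 platforms. CIRIquant gave it 288, 161 and 0 reads in Adar1-2KO, 0, 125 and 0 in Adar2KO, and 0 in each WT library. ONT gave it 17, 11 and 6 reads in Adar1-2KO, 13, 7 and 9 in Adar2KO, and 5 and 4 in WT, so it was present in all 8 ONT libraries, and the ONT log2 fold change of Adar1-2KO over WT was 0.42 with an adjusted p of 0.977 by edgeR. CIRI2 listed it with 168 and 0 reads in Adar1-2KO replicates 2 and 3, with 130 in Adar2KO replicate 2 and with none in the other Adar2KO and WT libraries. A circle listed at 0 on Illumina thus had ONT reads in each of the 5 genotype replicates that had both platforms and an Illumina 0.

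The authors' deposited table of Adar1-2KO against WT gave the exons 67–69 circle a log2 fold change of 8.15 with an adjusted p of 1.3e-05. It was the only one of the 286 Lrp1b circles in the authors' deposited table with an adjusted p under 0.05, where 0.0336% of all 160909 circles had one. In the same deposited table the exons 67–71 circle had a base mean of 895, a log2 fold change of 2.34 (SE 0.831), a p of 0.00477 and an adjusted p of 0.911. At a p under 0.05 the authors' deposited table held 7 Lrp1b circles, 5 of them higher in Adar1-2KO, and 1.32% of all circles. No Lrp1b circle was in the authors' deposited table of Adar2KO against WT, which lists 772 circles.

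Circles ending at exon 72 without exon 67 were scarcer. The exons 68–72 circle had 5, 0 and 0 reads in Adar1-2KO, 33, 39 and 25 in Adar2KO, and 46, 32 and 32 in WT, and its Adar1-2KO libraries lay below all others. The exons 70–72 circle had 23, 94 and 0 reads in Adar1-2KO, 172, 110 and 268 in Adar2KO, and 216, 0 and 78 in WT, with a listed 0 among the WT libraries too. Both circles were named after their values were seen, the first because DESeq2 called it in the contrast that chose the exons 67–71 circle.

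The Lrp1b circles were spread over the whole gene. The 386 circles span chr2:40501444-42483199, a stretch of 1981756 bp, with 324 listed as exonic and 62 as intronic, and the intronic ones held 499 of 52957 Illumina reads. CIRIquant listed 343 of them, CIRI2 348 and ONT 128, and 110 were in both CIRIquant and ONT. Most were rare: 151 were listed in a single Illumina library and 20 in all 9, and the 10 with most reads held 72.7% of the gene's reads. Of the 17431 host genes with a circle, 6 had more circles than Lrp1b and 56 had more back-splice reads.

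Among the 10 circles with most reads by CIRIquant, the exons 38–41 circle at chr2:41000766-41003106 was the nearest to the exons 67–71 circle in those reads. It had 1080, 645 and 1799 reads in Adar1-2KO, 843, 769 and 1175 in Adar2KO, and 1255, 661 and 469 in WT, and the genotypes overlapped. On ONT it had 107, 58 and 237 reads in Adar1-2KO, 115, 84 and 115 in Adar2KO, and 59 and 42 in WT. The Illumina means were 347 ± 80.0 CPM in Adar1-2KO, 351 ± 36.4 CPM in Adar2KO and 329 ± 60.4 CPM in WT (SD, n = 3 each), with log2 fold changes of 0.08 for Adar1-2KO over WT and 0.09 for Adar2KO over WT. In WT its CIRIquant level and that of the exons 67–72 circle, 351 ± 49.3 CPM, did not differ beyond their spread. Both were above the 133 ± 15.8 CPM of the exons 67–71 circle. CIRI2 set the exons 38–41 circle lower in every WT library, at 1304, 683 and 483 reads. The exons 67–72 circle had 1726, 1450 and 842 there, and 68 and 72 on ONT against 59 and 42. In Adar1-2KO the exons 67–71 circle was the highest of all.

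The exon 44 start gave the exons 44–47 circle, chr2:40809148-40818034, and the exons 44–49 circle, chr2:40792989-40818034. The exons 44–47 circle had 287, 158 and 403 reads in Adar1-2KO, 389, 373 and 354 in Adar2KO, and 477, 379 and 204 in WT, or 84.2 ± 14.2, 144 ± 22.6 and 149 ± 20.3 CPM in the same order (SD, n = 3 each). In CPM all 3 Adar1-2KO libraries lay below all Adar2KO and WT libraries, and the log2 fold change over WT was -0.83. The exons 44–49 circle had 150, 78 and 459 reads in Adar1-2KO, 179, 171 and 188 in Adar2KO, and 318, 202 and 127 in WT. On ONT the exons 44–47 circle had 26, 8 and 57 reads in Adar1-2KO, 47, 42 and 49 in Adar2KO, and 14 and 17 in WT. The ONT log2 fold changes of Adar1-2KO over WT for the exons 44–47 and 44–49 circles were -0.30 (SE 0.51) and 0.30 (SE 0.58), with adjusted p of 0.966 and 0.970 by edgeR.

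Circles that begin at exon 17 had higher means in Adar1-2KO. The exons 17–20 circle, chr2:41298247-41335238, had 539, 202 and 564 reads in Adar1-2KO, 286, 166 and 181 in Adar2KO, and 319, 116 and 117 in WT, with means of 129 ± 36.3, 81.1 ± 26.4 and 75.4 ± 24.9 CPM in the same order (SD, n = 3 each). On ONT it had 54, 39 and 85 reads in Adar1-2KO, 50, 25 and 45 in Adar2KO, and 18 and 20 in WT. The exons 17–21 circle, chr2:41265846-41335238, had 173, 175 and 151 reads in Adar1-2KO, 104, 76 and 95 in Adar2KO, and 94, 78 and 65 in WT. On ONT the exons 17–21 circle had 48, 42 and 49 reads in Adar1-2KO, 14, 21 and 18 in Adar2KO, and 8 and 18 in WT, and here the Adar1-2KO libraries lay above all others in reads. The ONT log2 fold changes of the 2 circles for Adar1-2KO over WT were 0.53 (SE 0.42) and 0.82 (SE 0.52), with adjusted p of 0.834 and 0.771 by edgeR, so neither passed. The Illumina log2 fold changes, 0.77 and 0.65, are a description. In CPM the genotypes overlapped for both.

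The exons 36–41 and 8–11 circles complete the 10. The exons 36–41 circle had 371, 157 and 71 reads in Adar1-2KO, 113, 152 and 107 in Adar2KO, and 139, 99 and 66 in WT, and the wide spread of its Adar1-2KO values, 65.5 ± 46.5 CPM, took in both other genotypes. The exons 8–11 circle had 106, 94 and 205 reads in Adar1-2KO, 112, 96 and 119 in Adar2KO, and 164, 121 and 76 in WT, a mean of 40.9 ± 9.17 CPM in Adar1-2KO, 41.6 ± 1.81 CPM in Adar2KO and 51.2 ± 3.15 CPM in WT (SD, n = 3 each).

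**Figure D3:**
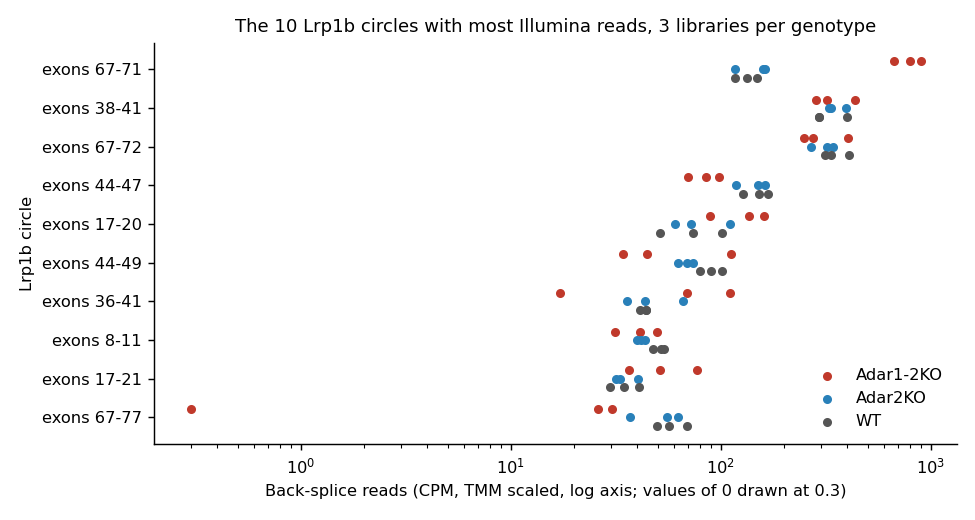
Level in TMM-scaled CPM (log axis) of the 10 Lrp1b circles with most Illumina reads, 1 point per library, with Adar1-2KO above Adar2KO and WT in each row, and a value of 0 drawn at the left edge. In the top row the Adar1-2KO points, 670 to 898 CPM, stand clear of all others, and in the exons 44–47 row they stand below them.

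Over the gene, 88 of the 343 CIRIquant circles had at least 5 reads in at least 3 libraries and were tested, and these held 96.2% of the gene's reads. In Adar2KO against WT, 0 of the 88 passed an adjusted p of 0.05 with edgeR, where 0.0209% of all 38297 circles passed. Apart from the exons 67–71 circle, 3 had an unadjusted p under 0.05 with edgeR, against 1.82% of all circles. DESeq2 called 1 Lrp1b circle, against 0.094% of all circles, the exons 67–69 circle, which had 125 reads in Adar2KO replicate 2 and 0 in the other Adar2KO and WT libraries. Adar1-2KO against WT is the contrast that chose the exons 67–71 circle, so only the other 87 are counted there. With edgeR 0 of these 87 passed, where 0.0627% of all circles passed. At an unadjusted p under 0.05 with edgeR there were 9 of the 87, against 6.74% of all circles. DESeq2 called 3 of the 87 there, against 0.488% of all circles, the exons 67–69, 68–72 and 17–18 circles. The exons 17–18 circle had 21, 2 and 204 reads in Adar1-2KO, 1, 17 and 0 in Adar2KO, and 0 in each WT library.

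The fitted log2 fold changes of the other 87 tested circles had a median of -0.32 for Adar1-2KO over WT, with 36 above 0, against -0.26 over all circles. For Adar2KO over WT the median was 0.07, with 49 above 0, against 0.04 over all circles. The median for Adar1-2KO over WT moved with the libraries and counts used. Without Adar1-2KO replicate 3 the medians were -0.11 for the other Lrp1b circles (40 of 85 above 0) and -0.03 for all circles. Without WT replicate 1 the Lrp1b median was -0.102, and without WT replicate 2 it was -0.0964. Without Adar1-2KO replicate 1 it was -0.93, against -0.57 for all circles. With CIRI2 counts it was -1.04 (30 of 98 above 0), against -0.66 for all circles. Among circles listed in all 9 libraries the sign turned, with a median of 0.16 over 19 other Lrp1b circles and 0.10 over all. That choice leaves out every circle at 0 in Adar1-2KO replicate 3, the library that listed the fewest circles. The part of this choice in the turn was not tested. The 80 other circles with reads in both Adar1-2KO and WT ranged from -4.88 to 2.63.

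On ONT, 21 Lrp1b circles were tested, and edgeR called 0 of them in either contrast, where 0.0% of all 10367 circles passed for Adar1-2KO and 0.00965% for Adar2KO. Apart from the exons 67–71 circle, 2 of 20 had an unadjusted p under 0.05 with edgeR for Adar1-2KO and 0 for Adar2KO, against 7.49% and 4.28% of all circles. DESeq2 called 0 of these 20 in either contrast, against 0.453% of all circles for Adar1-2KO and 0.106% for Adar2KO. The ONT median of the other 20 was 0.04 for Adar1-2KO over WT, with 10 above 0, and -0.03 for Adar2KO over WT, with 10 above 0, against 0.04 and 0.18 over all circles. One ONT fold change was above that of the exons 67–71 circle, 3.24 (SE 1.64) for the exons 58–60 circle, which had 7, 7 and 64 ONT reads in Adar1-2KO, 0, 2 and 8 in Adar2KO, and 2 and 0 in WT, with an adjusted p of 0.703 by edgeR. It was named after its values were seen.

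**Figure D4:**
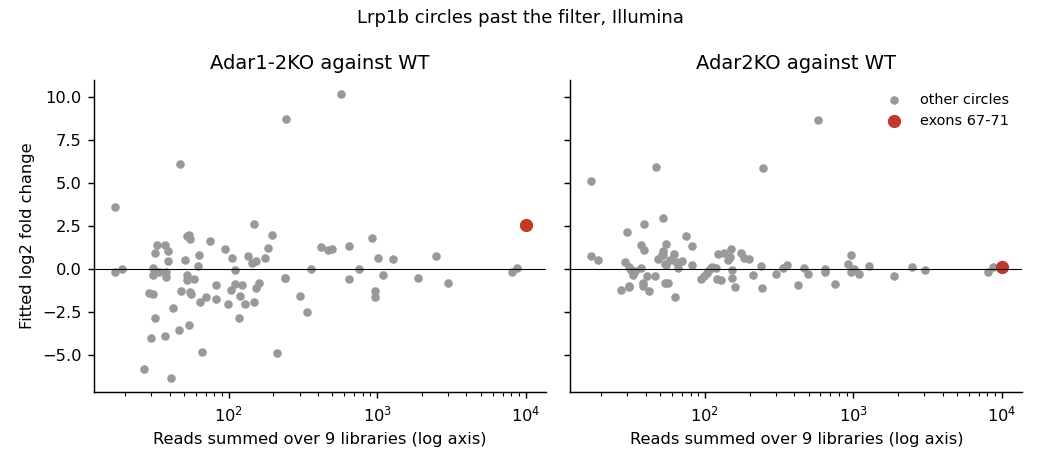
Fitted log2 fold change of each of the 88 tested Lrp1b circles against its Illumina reads summed over 9 libraries (log axis), for Adar1-2KO against WT (left) and Adar2KO against WT (right), with the exons 67–71 circle in red. Of the other 2 circles with most reads, exons 38–41 and 67–72, the fold changes are 0.08 and -0.19 for Adar1-2KO and 0.09 and -0.18 for Adar2KO, and the widest fold changes belong to circles with few reads or with libraries listed at 0.

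Of the other much used splice sites, the exon 41 end, used by the exons 38–41 and 36–41 circles, had 415 ± 51.8 CPM in Adar1-2KO, 402 ± 29.6 CPM in Adar2KO and 376 ± 59.5 CPM in WT. The exon 44 start had 153 ± 61.3 CPM in Adar1-2KO, 224 ± 29.4 CPM in Adar2KO and 250 ± 24.9 CPM in WT. The exon 17 start had 214 ± 30.6 CPM in Adar1-2KO, 127 ± 28.5 CPM in Adar2KO and 116 ± 22.1 CPM in WT (SD, n = 3 each for the 3 sites). At this start the Adar1-2KO libraries, 240, 180 and 223 CPM, lay above all others. The highest were 158 CPM in Adar2KO and 136 CPM in WT, and the ratio of Adar1-2KO to WT was 1.85, as a description. Of the 4 most used ends, exons 71, 41, 72 and 47, the ratios of Adar1-2KO to WT were 5.52, 1.11, 0.795 and 0.561.

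**Figure D5:**
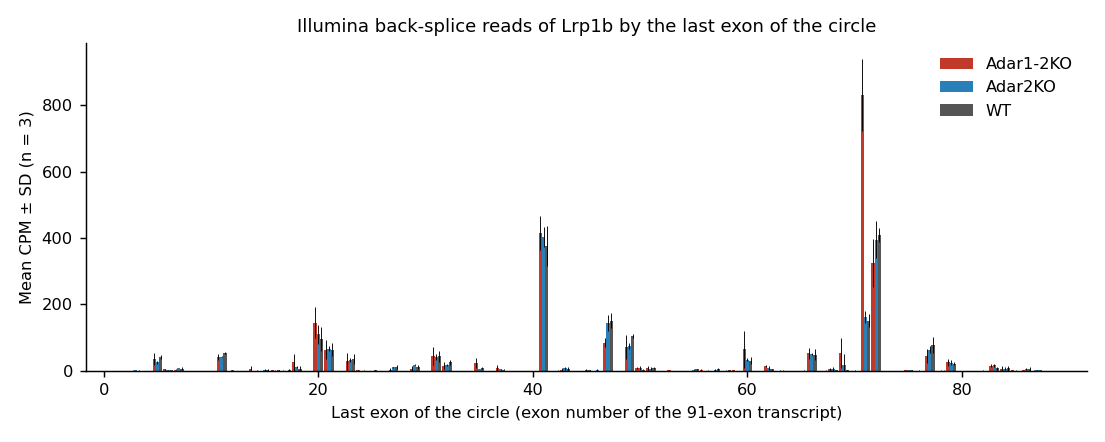
Mean Illumina level (CPM ± SD, n = 3) of all Lrp1b circles ending at each exon of the 91-exon transcript, with Adar1-2KO, Adar2KO and WT side by side. The exon 71 end stands at 832 CPM in Adar1-2KO, 161 CPM in Adar2KO and 151 CPM in WT, while exon 41 stands at 415, 402 and 376 CPM.

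As a whole, Lrp1b gave 0.249 ± 0.0168% of all back-splice reads in Adar1-2KO, 0.184 ± 0.00652% in Adar2KO and 0.190 ± 0.0121% in WT (SD, n = 3 each). Without the exons 67–71 circle these shares were 0.171 ± 0.00878% in Adar1-2KO, 0.170 ± 0.00838% in Adar2KO and 0.176 ± 0.0109% in WT. The difference of Adar2KO from WT in the second share, -0.00634 percentage points, had a two-sided exact permutation p of 0.4, where 3 against 3 cannot go below 0.1. With reads summed per host gene, Lrp1b without that circle had a log2 fold change of -0.03 (SE 0.15) for Adar1-2KO over WT, and of -0.06 (SE 0.15) for Adar2KO over WT with an adjusted p of 0.9999 by edgeR. With library sizes taken from mapped reads, a scaling chosen after seeing the data, the second value was 0.12. Over all 8562 host genes tested, 0.0818% passed with edgeR for Adar1-2KO and 0.0701% for Adar2KO.

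The reads spliced onward from the same sites can be set beside the circle. In CIRI2, non-junction reads cover either end of a circle without crossing its back-splice. They include a read that passes from exon 71 into exon 72 inside the exons 67–72 circle, so they are not a measure of linear mRNA alone. For the exons 67–71 circle they were 1201 and 2289 in Adar1-2KO replicates 2 and 3, 1453, 1319 and 1833 in Adar2KO, and 2091, 1723 and 970 in WT. As CPM of each library's junction reads these are 427 and 427 in Adar1-2KO, 431, 461 and 460 in Adar2KO, and 507, 600 and 494 in WT.

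The deposited CIRI2 junction ratio, the junction reads of both ends over these plus non-junction reads, was 0.726 and 0.770 for the exons 67–71 circle in Adar1-2KO, 0.376, 0.303 and 0.350 in Adar2KO, and 0.327, 0.296 and 0.296 in WT. For the exons 67–72 circle it was 0.788 and 0.864 in Adar1-2KO, 0.787, 0.761 and 0.790 in Adar2KO, and 0.764, 0.749 and 0.747 in WT. The ratio of the exons 67–71 circle was thus higher in both Adar1-2KO libraries than in any Adar2KO or WT library, whereas for the exons 67–72 circle the Adar1-2KO and Adar2KO ratios overlapped. Each ratio sets a back-splice against the other reads at its own ends and does not compare the 2 circles with each other.

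The forward-splice counts of CIRIquant could not be used in the same way. They were 0 for the exons 67–71 circle in all 3 Adar1-2KO libraries, in Adar2KO replicate 1 and in WT replicates 1 and 3, and 1314, 1960 and 1643 in Adar2KO replicates 2 and 3 and WT replicate 2. Among 230 pairs of an Lrp1b circle and a library with at least 20 reads and a CIRI2 table, 134 (58.3%) had a CIRIquant forward count of 0, and CIRI2 listed non-junction reads for all 134. Over all circles 34.3% of such pairs had a forward count of 0. The limma log2 ratio of back-splice to forward-splice reads, Adar2KO minus WT, was -3.53 from these counts and 0.24 (SE 0.33) from CIRI2, and neither passed (adjusted p = 0.9999 and 0.99997), so no direction is given for it.

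The read names in the CIRI2 tables show flow cells. The WT libraries and Adar1-2KO replicate 2 lay wholly on the same flow cell, with 87.3% of the chromosome 2 junction reads of Adar2KO replicate 3. On that flow cell the exons 67–71 circle had 7204 CPM of chromosome 2 junction reads in Adar1-2KO replicate 2, 1577 in Adar2KO replicate 3, and 1530, 1616 and 1292 in the WT libraries. On the 2 other flow cells of Adar1-2KO replicate 3 it had 9065 and 8935. The log2 fold change of Adar1-2KO over WT in the 5 libraries mainly on the shared flow cell was 2.35, with 1 Adar1-2KO and 1 Adar2KO library.

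Among 9411 circles listed in all 9 Illumina libraries, the 5 of other genes whose level followed the exons 67–71 circle most closely were ranked by Pearson's r of log2(CPM + 1) over the 9 libraries, as a description. They were a Stxbp5 circle (r = 0.972), a Zbtb20 circle (r = 0.959), a chromosome 7 circle with no gene name at 61740862 to 61768791 (r = 0.944), an Arhgap32 circle (r = 0.938) and a Stard3nl circle (r = 0.936). Stxbp5 encodes tomosyn, a regulator of vesicle fusion, Zbtb20 a zinc-finger repressor, Arhgap32 a GTPase-activating protein and Stard3nl a late endosomal membrane protein.

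The Stxbp5 circle, chr10:9717615-9744497, had 311 ± 73.6 CPM in Adar1-2KO, 7.83 ± 4.92 CPM in Adar2KO and 6.21 ± 3.50 CPM in WT (SD, n = 3 each). The Zbtb20 circle had 1378 ± 177 CPM in Adar1-2KO, 627 ± 123 CPM in Adar2KO and 523 ± 36.1 CPM in WT. The Stard3nl circle had 66.6 ± 13.9 CPM in Adar1-2KO, 3.76 ± 2.25 CPM in Adar2KO and 5.54 ± 3.30 CPM in WT. On Illumina the Adar1-2KO mean of each of these 3 was the highest, which is what the ranking selects. On ONT the Stxbp5 circle had 79, 49 and 137 reads in Adar1-2KO, 2, 0 and 7 in Adar2KO, and 0 and 0 in WT, and the Stard3nl circle had 26, 18 and 43 in Adar1-2KO, 6, 5 and 8 in Adar2KO, and 0 and 2 in WT. The Arhgap32 circle had 16, 8 and 48 ONT reads in Adar1-2KO, 16, 11 and 12 in Adar2KO, and 3 and 2 in WT. Its Adar1-2KO and Adar2KO libraries thus overlapped in ONT reads. The chromosome 7 circle had 0 ONT reads in every library. The Zbtb20 circle was listed unevenly on ONT, at 0 in all 3 Adar1-2KO libraries, at 0, 168 and 0 in Adar2KO, and at 75 and 84 in WT. Its Illumina reads in the 3 Adar2KO libraries were 1720, 1126 and 2170, so an ONT 0 need not mean a low level. No ONT direction is given for it.

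Receptors related to Lrp1b and their partners were set beside it at the host level. Of 15 genes of the LDL receptor family, 13 were tested and 0 passed with edgeR in either contrast. Over all hosts 0.0818% passed for Adar1-2KO and 0.0701% for Adar2KO. The median log2 fold change of these 13 was -0.06 for Adar1-2KO over WT, with 6 above 0, and -0.07 for Adar2KO over WT, with 6 above 0, against -0.07 and 0.02 over all hosts. Lrp6, a Wnt co-receptor, had 1247 ± 253 CPM in Adar1-2KO, 1240 ± 29.8 CPM in Adar2KO and 1414 ± 93.6 CPM in WT. Sorl1, a sorting receptor for APP, had log2 fold changes of -0.82 and -0.07 for Adar1-2KO and Adar2KO over WT, Lrp8, a reelin receptor, had -0.63 and -0.34, and Ldlrad4 had 0.75 and 0.63.

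Of 15 ligands, chaperones and adaptors, 10 were tested and 0 passed with edgeR in either contrast, with medians of 0.13 (7 above 0) for Adar1-2KO and -0.10 (4 above 0) for Adar2KO. Over all hosts 0.0818% and 0.0701% passed in the same order, and the medians were -0.07 and 0.02. App had log2 fold changes of 0.15 and -0.09 for Adar1-2KO and Adar2KO over WT, Dab1, the reelin pathway adaptor, had 0.11 and 0.10, Reln itself had 0.22 and 0.08, and Apbb1 had 0.78 and -0.12. All 30 of the other long neuronal genes listed were tested, and 0 passed with edgeR in either contrast. Their medians were 0.15 (21 above 0) for Adar1-2KO and 0.01 (16 above 0) for Adar2KO, beside the same shares and medians over all hosts. The splicing factor gene Rbfox1 had log2 fold changes of 0.34 and 0.43 for Adar1-2KO and Adar2KO over WT, Csmd1 had 0.08 and 0.02, and the adhesion gene Cntn5 had 0.38 and 0.11.

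The nearest host genes on chromosome 2 were far away. Ppp6c, a protein phosphatase subunit gene 1400379 bp beyond the lower end of the Lrp1b circles, had log2 fold changes of 0.29 (adjusted p = 0.988) for Adar1-2KO and 0.42 (adjusted p = 0.9999) for Adar2KO over WT by edgeR. Gm24350, 212314 bp beyond the higher end, had too few reads to test. Ifih1, whose allele differs between Adar1-2KO and the other genotypes, lies on the same chromosome, and its circle is 21.8 Mb from the exons 67–71 circle. Any effect of chromosome 2 sequence that travelled with that allele was not tested.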

How the data were processed

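Per the labels' protocols, RNase R and rolling reverse transcription with random primers were followed by 14 cycles of cDNA amplification, and then by Illumina or ONT library preparation. BWA 0.7.17 and bcl2fastq were used on GRCm39, per the submitters' processing notes, and the authors' CIRIquant tables were made with CIRIquant 1.1.2, per the file headers. The authors' CIRIquant and CIRI2 tables hold counts of back-splice (junction) and forward-splice (non-junction) reads per circle. On ONT the authors deposited read counts, with no circle under 2 reads, from a caller not given in the sources used here. A deposited junction ratio is a fraction of circular among all reads at the sites, and a deposited expression value is in CPM of mapped reads. In the authors' DESeq2 2.11.40.8 tables each circle has a normalized signal (base mean), log2 fold change, Wald score, p-value and adjusted p-value. The 3 Adar1-2KO CIRIquant tables have headers shifted left by 1 against their values, which was corrected.

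A circle entered the tests of a platform when 3 or more of its libraries had 5 or more reads, and all 3 genotypes were fitted together with edgeR 4.0.16 (TMM, quasi-likelihood, Benjamini-Hochberg adjustment over all circles at 0.05). For the circular share limma 3.58.1 was used (pseudocount 0.5, at least 20 reads of both kinds together in every library), and DESeq2 1.42.0 was an alternative. R was 4.3.3, and the scripts were tested on simulated data. Exon numbers and sequences came from the GENCODE M21 transcripts (GRCm38) by exon length only, and no coordinates were converted. WT replicate 1 on ONT and Adar1-2KO replicate 1 in CIRI2 were not analysed here. Circles that overlap genes on the other strand may be misassigned, since no step that marks strand is stated.

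The members and gene lists were chosen with earlier results of these data known. Circles named were the one picked out, the 10 with most Illumina and the 5 with most ONT reads, those past the filter that share an end with it, any with an adjusted p under 0.05, the 5 most alike circles of other genes, and up to 4 hosts of each list by reads. For the long genes, 1 host that the rule names is not reported here. Alternatives were DESeq2, its size factors, other filters and pseudocounts, CIRI2 counts, a replicate block and leaving out each library. Library sizes from mapped reads, libraries of 1 flow cell, circles listed in all 9 libraries, CIRI2 for the circular share and Adar2KO in place of WT on ONT were added after the data were seen.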

Additional observations from a re-analysis of the deposited data

How the results depend on the processing

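The exons 67–71 circle kept its direction in Adar1-2KO over WT on both platforms under all alternatives run. On Illumina its log2 fold change was 2.47 to 2.67 with 1 library left out, 2.90 with mapped reads as library sizes and 2.35 in the libraries mainly on flow cell 1, the last 2 chosen after seeing the data. On ONT it was 2.17 to 3.04 with 1 library left out and never passed there, but it passed at 2.53 with DESeq2 and 2.58 with no filter on low counts. With Adar2KO in place of WT, which is another contrast and was chosen after seeing the data, it passed at 3.31. These DESeq2 and unfiltered fits called 1 Lrp1b circle each on ONT, against 0, and leaving out a library called 0. The cause was not tested. In Adar2KO over WT the circle was 0.04 to 0.26 on Illumina and -1.11 to -0.27 on ONT with 1 library left out. On Illumina, DESeq2 and the unfiltered fit each called 1 Lrp1b circle in Adar2KO, the exons 67–69 circle, against 0 in the other fits, and leaving out a library called 0. The host without the exons 67–71 circle, -0.06 in Adar2KO over WT, was -0.12 to -0.03 with 1 library left out and 0.12 with mapped reads, which moved the median of all circles to 0.07 for Adar1-2KO and 0.16 for Adar2KO. Its share of the library differed by -0.0126 to -0.00237 percentage points with 1 library left out. The log2 circular share from CIRIquant was -7.49 to -1.26 with 1 library left out and 0.24 with CIRI2. Same-numbered libraries did not deviate together (r = -0.030 to 0.020), and the replicate block gave 2.55 and 0.11 on Illumina, 2.52 (adjusted p = 0.104 by edgeR) and -0.82 on ONT, -0.06 for the host and -3.53 for the share, and changed no call. Of 343 Illumina circles, 255 did not pass the filter on low counts and were not tested. Why Adar1-2KO replicate 3, the library with most reads, listed the fewest circles was not tested.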
